A study of Saccharomyces cerevisiae with 21 samples.

Results

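Subtelomeric gene features are the genes and gene-like stretches that lie within 25 kb of the outermost counted feature of a yeast chromosome arm. They were taken from the deposited coordinates as every feature that ends at or before base 25000, or starts no more than 25000 bases before the largest end on its chromosome, with mitochondrial and spike-in rows left out. There were 386 such features among 6572 features of the nuclear genome (5.87%), on all 32 arms of 16 chromosomes, 187 at left and 199 at right ends. When the right ends were set by the length of the reference chromosomes, 378 features remained and 8 were lost.

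The libraries hold poly(A) RNA of the budding yeast Saccharomyces cerevisiae, strain BY4742 (MAT alpha his3Δ1 leu2Δ0 lys2Δ0 ura3Δ0), with NAB2 fused to yEGFP at its own locus in every strain. Nab2 is a nuclear poly(A) RNA binding protein. Cells labelled wild type carried the tagged protein, the IDR mutant lacked residues 104 to 263 (the QQQP and RGG stretches of its disordered region) and carried an SV40 nuclear localisation signal, and the interface mutant carried the F450A substitution; they are also called IDR cells and interface cells. Cells grew in synthetic medium with 2% glucose, or were then washed 3 times and kept without glucose for 24 h. Whole cell libraries cover both conditions in each strain (n = 2 in each of 6 groups), and nuclear extracts from spheroplasts cover starved cells of each strain (3 libraries each). The wild type is therefore itself a tagged strain, and the labels do not say whether replicates were separate cultures, so a p-value here reflects how far these libraries spread, and that spread may be technical.

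Chromosome ends of budding yeast carry repeated X and Y' elements and are packed by the Sir proteins into silent chromatin, which weakens with distance from the telomere. Between these repeats and the unique arm lie gene families for using alternative sugars, for metal and vitamin uptake and for the cell wall, many of which are kept off in glucose. The families arose by duplication, so several copies are nearly the same in sequence. A near-identical copy was defined here as another place in the reference genome with at least 95% identity over at least 50% of the feature. By that measure 192 of the 386 subtelomeric features (49.7%) had a copy, against 109 of the 6186 other features (1.76%).

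The start of the coding sequence of 3 seripauperin genes (PAU, a family of small cell wall proteins) shows how little separates such copies. The 120 bases are from reference assembly R64, 5′ to 3′ on the coding strand, PAU4 from chrXII:1062919-1063038, PAU6 from chrXIV:781918-782037 (both on the plus strand) and PAU13 from chrVIII:12166-12285 on the minus strand, and capitals mark the 5 positions at which the genes differ.
PAU4: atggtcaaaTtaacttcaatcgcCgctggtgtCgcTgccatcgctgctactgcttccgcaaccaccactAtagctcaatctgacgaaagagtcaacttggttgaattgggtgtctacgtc
PAU6: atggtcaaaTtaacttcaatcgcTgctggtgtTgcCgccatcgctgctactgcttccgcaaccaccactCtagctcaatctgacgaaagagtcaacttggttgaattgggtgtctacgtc
PAU13: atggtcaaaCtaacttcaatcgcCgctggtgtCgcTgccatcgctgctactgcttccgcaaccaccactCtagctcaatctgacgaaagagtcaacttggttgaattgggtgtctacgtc

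YCR102C and YLR460C, the members with the largest log2 fold changes on starvation in wild type, share their upstream sequence. These genes for uncharacterised proteins lie on chromosomes III and XII and are 94.0% identical over 1107 bases (66 differ), just under the limit for a copy. Over a 226-base upstream window they are 98.2% identical and differ at 4 positions. The 126 bases farthest from the coding start are shown on the minus strand of R64, for YCR102C chrIII:305592-305717 (250 to 125 bases upstream) and for YLR460C chrXII:1060988-1061113 (226 to 101 bases upstream), with capitals for the 2 differing positions of this stretch.
YCR102C: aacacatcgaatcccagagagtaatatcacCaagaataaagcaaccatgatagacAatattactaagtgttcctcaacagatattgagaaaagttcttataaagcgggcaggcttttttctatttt
YLR460C: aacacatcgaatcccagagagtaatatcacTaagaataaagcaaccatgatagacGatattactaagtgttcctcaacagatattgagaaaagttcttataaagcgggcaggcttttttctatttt

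DAL7 and DCG1 are neighbours on chromosome IX that rose more in the starved IDR mutant than in wild type. Both are counted among the genes of allantoin use, a nitrogen source, and DAL7 encodes a malate synthase. The stretches shown lie 250 to 101 bases upstream, on the minus strand of R64 (DAL7 chrIX:414780-414929, DCG1 chrIX:412871-413020). Capitals mark the letters GATAAG or their reverse complement CTTATC, the core sequence read by GATA factors, which occurred 3 times upstream of DAL7 and 2 times upstream of DCG1.
DAL7: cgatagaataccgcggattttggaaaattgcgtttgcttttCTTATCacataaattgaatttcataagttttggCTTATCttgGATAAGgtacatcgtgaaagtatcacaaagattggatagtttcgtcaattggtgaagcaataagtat
DCG1: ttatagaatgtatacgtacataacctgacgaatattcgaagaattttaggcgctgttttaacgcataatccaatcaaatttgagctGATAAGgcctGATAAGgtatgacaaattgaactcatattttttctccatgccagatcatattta

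GATAAG, on either strand, was in the 250 bases upstream of 12.4% of 6571 features, of 13.5% of 385 subtelomeric features and of 19 of the 119 that rose on starvation in wild type. AGGGG, the core of the stress response element, was in 18.7%, 15.1% and 14.3% (17 features) of the same sets. A match of letters describes the window and shows no binding.

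Subtelomeric features were short and lowly counted. Their median length was 699 bases, against 1092 elsewhere, and their median level over the 19 deeply sequenced libraries was 4.979 CPM (counts scaled to a common library size), against 53.85. None of those libraries held a count for 7 members (1.8%), of which 6 had a copy, or for 26 other features (0.42%). On the same strand 26 members overlap another feature and 79 overlap one on the opposite strand. At the 25 kb limit, HPA2 (24792 bases from its end, 3.05 CPM) and SFT2 (24745 bases, 50.5 CPM) were just inside, and YER181C (25052 bases, 0.716 CPM) and YDR535C (25105 bases, 1.8 CPM) just outside. The silent mating cassettes sit in these regions. HMRA1, which has no copy in the MAT alpha reference, had no more than 4 counts in any library and a count in 7 of the 19.

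The count per library was 4815254 to 14069868 in whole cells and 6353585 to 23138938 in the 7 deep nuclear extracts. For lack of depth the tests left out replicate 3 of nuclear wild type (1079 counts) and of the nuclear interface mutant (3981 counts). Unstressed wild type replicate 1 stood apart, with Spearman correlations of 0.873 to 0.918 with the other 5 unstressed libraries, whose correlations with each other were 0.984 to 0.997. NAB2, of which the IDR mutant lacks a part, was at 370.8 and 380.4 CPM in starved wild type, 234.9 and 356.9 CPM in the starved interface mutant and 133.2 and 123.4 CPM in the starved IDR mutant. In unstressed cells the mutants overlapped, at 205.4 and 225.5 CPM in IDR cells and 253.6 and 208.4 CPM in interface cells. Both unstressed wild type libraries lay below them, at 49.8 CPM in replicate 1, which stood apart, and 201.3 CPM in replicate 2. In the deep nuclear extracts NAB2 was at 414.5 and 431.3 CPM in wild type, 277.5, 296.6 and 127.4 CPM in replicates 1, 2 and 3 labelled IDR mutant, and 119.1 and 330.7 CPM in replicates 1 and 2 labelled interface mutant. The lowest nuclear value was thus in a library labelled interface mutant, against its label.

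The share of a library's counts that fell in subtelomeric features was higher in every starved library than in every unstressed one. In unstressed cells the share was 1.019% and 1.167% in wild type, 1.132% and 1.144% in IDR cells, and 1.184% and 1.167% in interface cells. In starved whole cells it was 2.349% and 2.365% in wild type, 3.118% and 3.154% in IDR cells, and 2.491% and 2.567% in interface cells. The unstressed strains overlapped, whereas both starved IDR libraries lay above all other starved whole cell libraries. In the 7 deep nuclear extracts the share was 2.681% and 2.628% in wild type, 2.76%, 2.737% and 3.028% in those labelled IDR mutant, and 3.126% and 2.624% in those labelled interface mutant, and the strains overlapped. A share is a score over all members, so it is given as a description without a test. Because these are bulk samples, fewer cells that express a feature and less of its RNA per cell cannot be told apart.

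Few genes made up much of that share. The 5 members with the highest median level over the deep libraries were HXK1 (3300 CPM), YLR460C (2130 CPM), YCR102C (1660 CPM), YML131W (1240 CPM) and JEN1 (1240 CPM). They held 2.4% to 3.9% of member counts in unstressed libraries, 47.7% to 51.7% in starved whole cells and 30.0% to 49.7% in deep nuclear extracts. Without them the share was 0.993% to 1.155% in unstressed libraries, 1.209% and 1.236% in starved wild type, 1.203% and 1.267% in the starved interface mutant, and 1.52% and 1.532% in the starved IDR mutant. The starved libraries still lay above the unstressed ones, by a smaller margin. These 5 were chosen after their values were seen. Most of the deep libraries are from starved cells, so the ranking favours genes high in starved cells, and part of the narrowing follows from that choice.

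**Figure D1:**
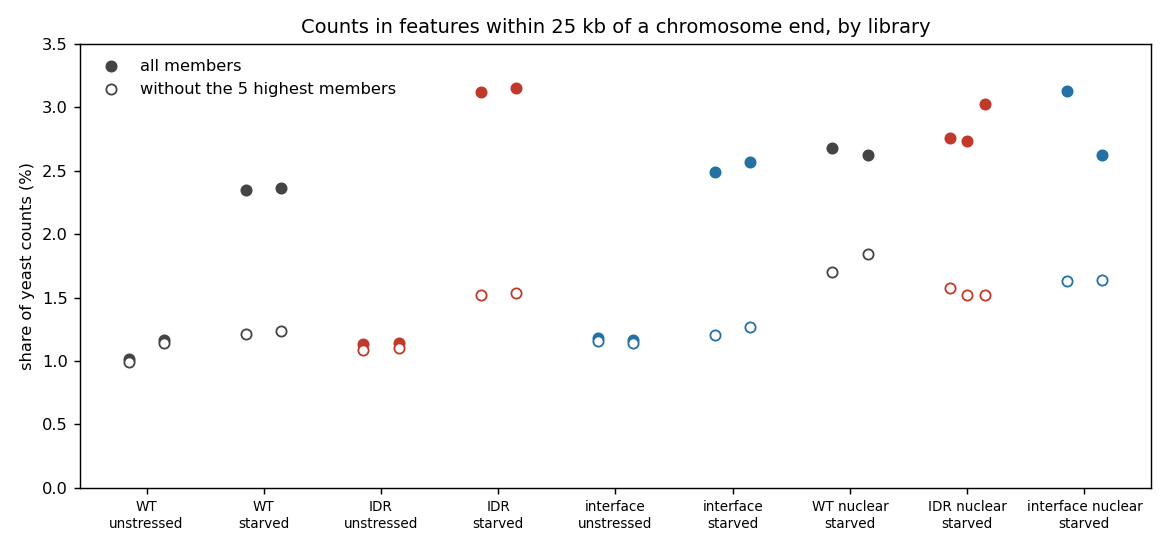
Share of each deeply sequenced library's yeast counts (%) that fell in the 386 subtelomeric features, for every strain, condition and fraction; each point is 1 library, filled for all members and open without the 5 highest. The filled points lie between 1.019% and 1.184% in unstressed cells and between 2.349% and 3.154% in starved whole cells, and most of the gap closes when the 5 genes are left out. Those 5 were ranked by median level over mostly starved libraries, a choice that favours such a narrowing.

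Glucose starvation in wild type raised more subtelomeric features than it lowered. Of the 386 members, 275 had counts enough for edgeR's quasi-likelihood test, and 119 rose and 45 fell at a Benjamini-Hochberg adjusted p under 0.05. The background was high: 66.3% of all features tested passed, 31.8% as rises and 34.6% as falls. The share of tested members that passed, 59.6%, was thus below that of all features, and the balance of directions differed, with 43.3% of tested members rising. The median log2 fold change of tested members was 0.70, against -0.09 for other features. The filter on low counts keeps a feature that is high in 1 group only, so these counts and medians describe tested members and do not extend to the members not tested.

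Copies and the library that stood apart bear on this split. Among tested members without a copy, 62 of 158 rose and 33 fell, with a median log2 fold change of 0.33. Among those with a copy, 57 of 117 rose and 12 fell, with a median of 0.98, and because copies share reads they are not separate observations. Without unstressed wild type replicate 1, 112 members rose and 50 fell of 281 tested, with a median of 0.57.

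In IDR cells 146 of the 275 members rose and 25 fell on starvation, where 67.4% of all features passed (33.1% rises, 34.4% falls), and the median log2 fold change was 0.91. In interface cells 98 rose and 34 fell, where 59.9% of all features passed (29.7% rises, 30.2% falls), and the median was 0.43. The 3 comparisons use separate libraries, and 70 members rose (25.5% of those tested) and 18 fell (6.55%) in all of them, against 22.2% and 22.7% of all features.

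Distance from the end did not order the response evenly. In wild type the tested members rose in 17 of 34 cases within 5 kb of the end, 30 of 62 at 5 to 10 kb, 20 of 61 at 10 to 15 kb, 29 of 54 at 15 to 20 kb and 23 of 64 at 20 to 25 kb. Falls numbered 5, 9, 10, 4 and 17 in the same bands. The median log2 fold change was 0.86, 0.96, 0.20, 1.04 and 0.24 in that order, 0.22 at 25 to 50 kb (125 of 358 rose, 113 fell) and -0.10 beyond 50 kb (1612 of 5212 rose, 1862 fell). Members without a copy gave lower medians, -0.23 (4 members), 0.37, 0.06, 0.92 and 0.04 in the 5 bands within 25 kb, so the innermost value changed sign. The band at 15 to 20 kb had the highest median in each strain, at 1.50 in IDR cells and 0.88 in interface cells. Within 5 kb, 66 of 79 features had a copy and the median level was 0.19 CPM, so that band was the least well measured.

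**Figure D2:**
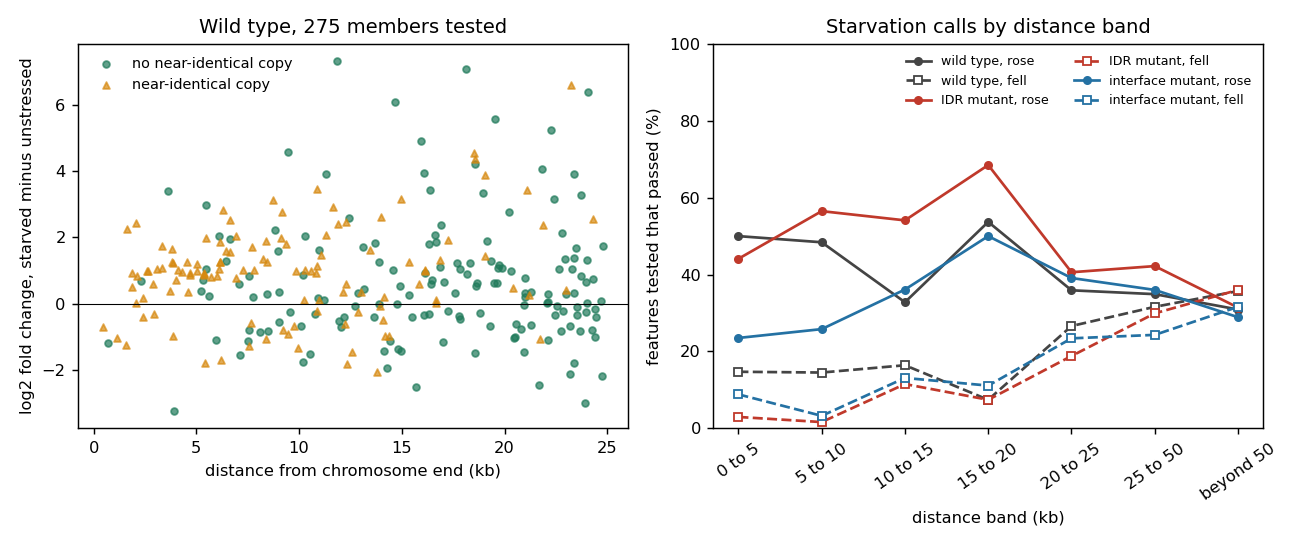
Left, log2 fold change on starvation in wild type of each of 275 tested members against distance from the chromosome end (kb), with triangles for members that have a near-identical copy; right, percent of tested features that rose (solid) or fell (dashed) in 7 distance bands in the 3 strains. Rises outnumber falls in each of the 5 bands within 25 kb in all strains, and falls outnumber rises beyond 50 kb.

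The strongest rises were in a pair of genes for uncharacterised proteins, in transporters and in a hexokinase. YCR102C (chrIII:304361-305467) was at 12.7 and 15.6 CPM in unstressed wild type and at 2294.7 and 2222.9 CPM after starvation. The mutants gave 8.29 to 13 CPM unstressed and 2245.6 to 2372.1 CPM starved, so all starved libraries lay far above all unstressed ones. The log2 fold change was 7.30 ± 0.27 (SE) in wild type (edgeR adjusted p = 1.23e-07), 8.15 ± 0.28 in IDR cells and 8.06 ± 0.28 in interface cells. Its relative YLR460C (chrXII:1059757-1060887) went from 20.3 and 25.4 CPM to 3109.8 and 3153.0 CPM in wild type, a log2 fold change of 7.08 ± 0.18 (adjusted p = 3.99e-08). The mutants were alike in direction, at 7.35 ± 0.18 and 7.68 ± 0.18. This pair, with the shared upstream sequence printed above, rose the most of the members in wild type.

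JEN1 (chrXI:22234-24084) encodes the lactate and pyruvate transporter of the plasma membrane, a gene repressed by glucose. It was at 10.2 and 6.36 CPM in unstressed wild type and at 731.6 and 756.1 CPM after starvation. Starved IDR libraries were higher, at 2492.4 and 2566.1 CPM, and starved interface libraries lay between, at 1391.6 and 1241.3 CPM. The 3 strains did not overlap when starved, whereas all unstressed libraries were at 4.16 to 10.2 CPM. The log2 fold change was 6.38 ± 0.36 in wild type (edgeR adjusted p = 7.94e-07), 8.97 ± 0.40 in IDR cells and 8.63 ± 0.40 in interface cells, and the IDR response exceeded that of wild type by 2.59 ± 0.43 (adjusted p = 0.00948).

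PHO89 (chrII:796798-798522), a sodium and phosphate cotransporter, was likewise highest in starved IDR cells. It was at 0.853 and 2.48 CPM in unstressed wild type, at 105.5 and 111.8 CPM in starved wild type, at 94.6 and 102.3 CPM in the starved interface mutant and at 422.9 and 439.3 CPM in the starved IDR mutant. Only the starved IDR libraries stood clear of the other starved whole cell libraries. The difference between starved IDR mutant and starved wild type was 2.17 ± 0.21 on the log2 scale (edgeR adjusted p = 0.000273). SUL1, a sulfate permease gene on the same arm, went from 0.569 and 0.397 CPM to 21.4 and 18.5 CPM in wild type (log2 fold change 5.24 ± 0.33, adjusted p = 1.56e-06).

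HXK1 (chrVI:253592-255049), the hexokinase used when glucose is scarce, had the highest median level of the members. It was at 78.1 and 152.6 CPM in unstressed wild type, at 3462.6 and 3294.1 CPM after starvation and at 5436.0 and 5636.5 CPM in the starved IDR mutant. Starvation raised it in every strain, by 4.91 ± 0.24 in wild type, 4.48 ± 0.23 in IDR cells and 4.75 ± 0.23 in interface cells on the log2 scale. Before starvation it was already at 319.4 and 335.1 CPM in IDR cells, above both wild type libraries, a log2 difference of 1.32 ± 0.20 (edgeR adjusted p = 0.0204).

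**Figure D3:**
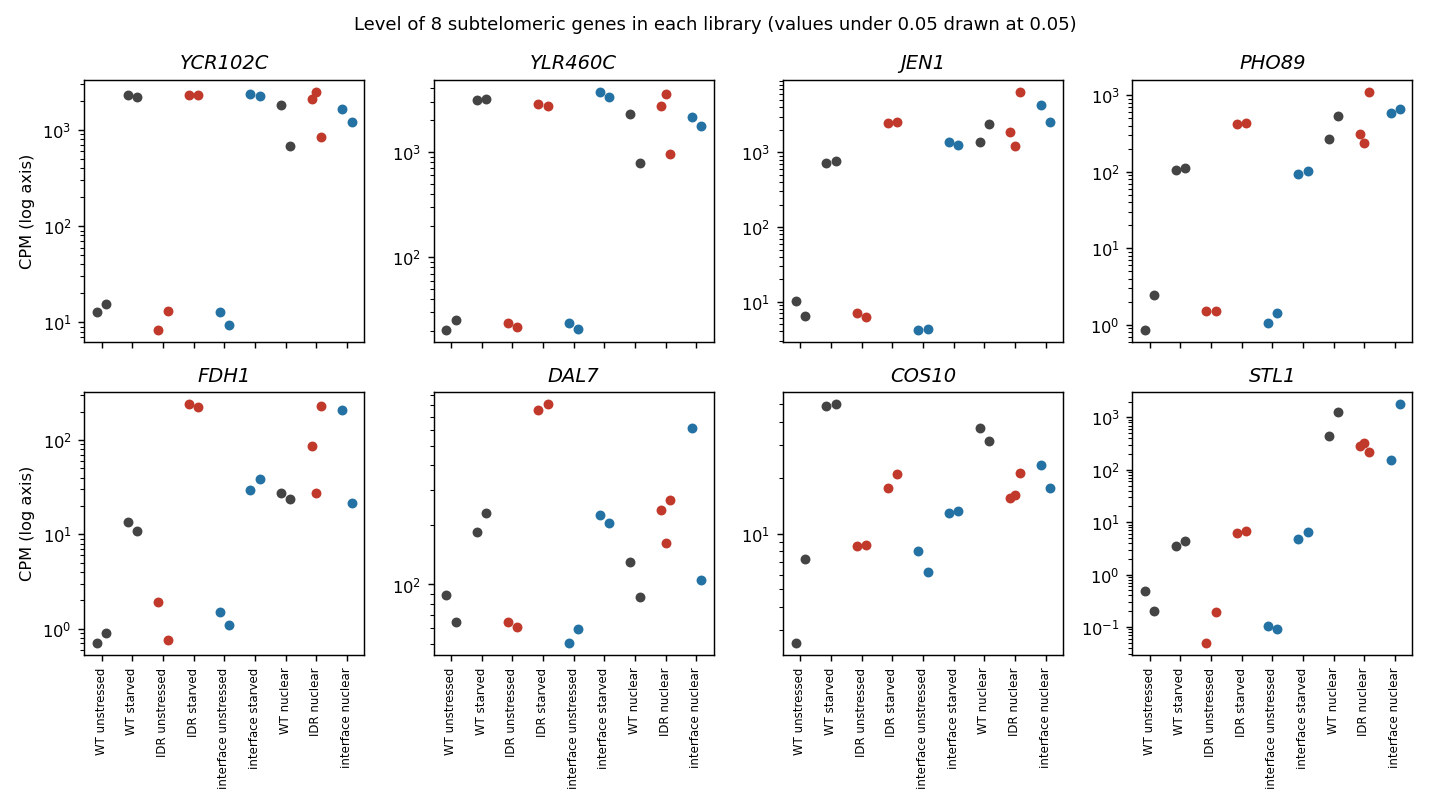
Level in CPM (log axis) of 8 subtelomeric genes in each deeply sequenced library, grouped by strain, condition and fraction (nuclear extracts are from starved cells, mutants as labelled), with 1 point per library. YCR102C and YLR460C separate starved from unstressed libraries in all strains, FDH1 and DAL7 are highest among whole cells in the starved IDR mutant, COS10 is highest in starved wild type, and STL1 is high in nuclear extracts only.

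Falls were fewer and smaller. COS12, of the conserved COS family of membrane proteins that act in protein sorting to the vacuole, was at 16.7 and 8.35 CPM in unstressed wild type and at 0.726 and 2.29 CPM after starvation (log2 fold change -3.22 ± 0.60, edgeR adjusted p = 0.0012). ADF1 fell from 15.4 and 21.4 CPM to 2.72 and 1.87 CPM (-2.98 ± 0.41), and overlaps a feature on the opposite strand. COS9 fell from 99.5 and 59.8 CPM to 14.7 and 15.8 CPM (-2.50 ± 0.35). PGA3, a cytochrome b5 reductase, fell by 2.43 ± 0.30, SFT2, which acts in Golgi traffic, by 2.16 ± 0.36, and KRR1, a ribosome biogenesis factor, by 1.78 ± 0.41 on the log2 scale. In each of these the wild type libraries of the conditions did not overlap.

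The maltose and isomaltase genes rose as a group. Of the 12 members of that list 7 have a near-identical copy, so their calls are not all separate observations. All 12 rose in wild type (31.8% of all features) and in IDR cells (33.1%), and 11 rose in interface cells (29.7%). Their summed level was 91.2 to 101 CPM in all unstressed libraries, 607 and 645 CPM in starved wild type, 832 and 835 CPM in the starved IDR mutant and 554 and 642 CPM in the starved interface mutant. Starved libraries of every strain were clear of the unstressed ones. IMA3 and IMA4 encode isomaltases and are identical copies. They rose by 4.37 ± 0.18 and 4.54 ± 0.18 in wild type on the log2 scale, and IMA3's share of the pair's counts, 45.5% to 52.1%, had an exact 95% binomial interval that covered 50% in 19 of 19 libraries, so their values are in effect 1 measurement. The same interval covered 50% for VTH1 and VTH2 in 17 of 19 libraries. Such intervals cover counting error only.

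In the other sugar and cell wall families some of the members tested rose. Of 19 seripauperins and related genes, all with copies, 14 were tested. Of these, 7 rose in wild type, 13 in IDR cells and 6 in interface cells (31.8%, 33.1% and 29.7% of all features), with no fall. Without starved wild type replicate 1, 3 rose in wild type, and without unstressed interface replicate 2, 3 rose in interface cells. Their summed level was low, at 5.69 and 10.3 CPM in unstressed wild type, 29.8 and 29.3 CPM in starved wild type, and 62.0 and 67.5 CPM in the starved IDR mutant. Among 5 hexose transporter genes 3 were tested, of which 2 rose in wild type and 1 did so without starved wild type replicate 2. Among 5 aryl alcohol dehydrogenase genes 3 rose in each strain. The 1 flocculin gene in the list rose in wild type and in IDR cells.

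The COS and DUP genes went the other way in wild type. Of 11 members 8 fell and 1 rose (34.6% and 31.8% of all features), and the summed level went from 640 and 555 CPM to 357 and 354 CPM. A near-identical copy exists for 6 of the 11, so these calls are not all separate observations. In IDR cells 1 fell and 3 rose (34.4% and 33.1%), and in interface cells 2 fell and 1 rose (30.2% and 29.7%). The fall in IDR cells was lost without starved replicate 1 or unstressed replicate 2, and 1 fall was left in interface cells without either unstressed library or starved replicate 2. The member that rose in wild type was COS10 (chrXIV:779916-781040), from 2.56 and 7.25 CPM to 49 and 50.1 CPM (log2 fold change 3.41 ± 0.28, edgeR adjusted p = 9.06e-06). It reached 17.6 and 20.9 CPM in the starved IDR mutant and 12.9 and 13.3 CPM in the starved interface mutant. Both starved mutants lay below starved wild type, by 1.19 ± 0.26 (adjusted p = 0.00898) and 1.81 ± 0.27 (adjusted p = 0.0231) on the log2 scale. The call in the interface mutant was lost without either starved wild type library or starved interface replicate 2, and that in the IDR mutant without either starved wild type library or starved IDR replicate 1.

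Metal, vitamin and phosphate genes were mixed. Of 7 siderophore and iron uptake genes 2 rose and 2 fell in wild type, 4 rose and 1 fell in IDR cells, and 2 fell in interface cells. Among all features 31.8%, 33.1% and 29.7% rose and 34.6%, 34.4% and 30.2% fell in wild type, IDR cells and interface cells. The wild type iron counts are near those shares. Of 8 thiamine and vitamin B6 genes, all with copies, 1 rose and 1 fell in wild type and 6 rose in IDR cells. Of 3 phosphate genes, PHO89 rose and 2 fell in every strain. The 2 that fell have a near-identical copy and may share reads, so they may not be separate observations. These small counts shifted with single libraries: without starved wild type replicate 1, 1 iron gene fell and no vitamin gene rose in wild type, and without unstressed IDR replicate 2, 3 vitamin genes rose in IDR cells.

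The Y' element helicases, YRF1 genes at the very ends, are encoded by near-identical copies. All 8 rose in wild type (31.8% of all features), 1 rose in IDR cells (33.1%) and none passed in interface cells (59.9% of all features passed). Their summed level was 260 and 694 CPM in unstressed wild type and 851 and 850 CPM after starvation, against 664 to 810 CPM in the unstressed mutants and 494 to 799 CPM in the starved mutants. The low value was that of the unstressed library that stood apart, and without it 6 of the 8 passed and the family's median log2 fold change went from 0.92 to 0.55. Without either of the starved wild type libraries 2 of the 8 passed, and the 1 call in IDR cells was lost without any of the 4 IDR libraries.

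A list of 16 genes for silencing factors and repressors that are not members was read beside the members. SIR1 and RPD3, which lie among the members, are not in that list. Of 16 such genes, 6 rose and 2 fell in starved wild type, 1 rose and 4 fell in IDR cells, and 3 rose and 6 fell in interface cells. Among all features 31.8%, 33.1% and 29.7% rose and 34.6%, 34.4% and 30.2% fell in the same order. SIR4 rose by 0.56 ± 0.22 in wild type (edgeR adjusted p = 0.0432), while SIR2 (-0.56 ± 0.29, adjusted p = 0.114) and SIR3 (-0.36 ± 0.17, adjusted p = 0.0887) did not pass. SAS2, a histone acetyltransferase subunit, went from 127.0 and 74.9 CPM to 10.2 and 11.2 CPM (-3.36 ± 0.40). How these genes relate to the members was not tested.

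The starvation response of 37 subtelomeric features differed between the IDR mutant and wild type, 35 of them with a larger value in the mutant and 2 with a smaller one. Among all features 11.8% passed this interaction test (6.3% larger and 5.49% smaller), and among other features the directions were 333 larger and 319 smaller of 5570. The median interaction of tested members was 0.42 on the log2 scale, against 0.03 for other features. With a library left out only members were counted, so the counts that follow have no share of all features beside them. The count rests on every library: without starved wild type replicate 1 or 2 it was 3 or 8, and without an IDR library it was 9 or 4 (unstressed replicate 1 or 2) and 15 or 7 (starved replicate 1 or 2), all of them larger in the mutant. It was 137 (98 larger, 39 smaller) without unstressed wild type replicate 2, and 50 (45 larger, 5 smaller) without unstressed wild type replicate 1.

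FDH1 (chrXV:1071793-1072923), formate dehydrogenase, was at 0.711 and 0.894 CPM in unstressed wild type and at 13.6 and 10.8 CPM after starvation. It reached 238.3 and 222.6 CPM in the starved IDR mutant and 29.7 and 38.3 CPM in the starved interface mutant. The starved strains did not overlap, with the IDR mutant highest. The interaction was 3.94 ± 0.55 on the log2 scale (edgeR adjusted p = 0.00676), starved IDR mutant exceeded wild type by 4.41 ± 0.28 (adjusted p = 7.01e-05) and starved interface mutant did so by 1.58 ± 0.27 (adjusted p = 0.048). FDH1 is 99.6% identical over 1132 bases to a stretch of the R64 reference (chrXVI:17948-19079) that no counted feature overlaps, so reads of that stretch and of FDH1 may not be told apart. The call in the starved interface mutant was lost without either starved wild type library, without starved interface replicate 2 and with a replicate block.

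DAL7 (chrIX:413015-414679) was at 88.9 and 64.6 CPM in unstressed wild type, 184.1 and 229.7 CPM in starved wild type, 224.3 and 203.6 CPM in the starved interface mutant and 758.3 and 809.4 CPM in the starved IDR mutant. Its neighbour DCG1 (chrIX:412036-412770) was at 4.91 and 4.87 CPM in unstressed wild type and 3.99 and 4.57 CPM when starved, but went from 1.83 and 2.09 CPM to 10.3 and 12 CPM in IDR cells. For DCG1 the wild type response did not pass (-0.24 ± 0.28, adjusted p = 0.454), and the IDR libraries were the lowest before starvation and the highest after it among whole cells. The interaction was 2.70 ± 0.40 for DAL7 (edgeR adjusted p = 0.00741) and 3.14 ± 0.39 for DCG1 (adjusted p = 0.00526) on the log2 scale. These are the neighbours whose upstream GATAAG matches are printed above.

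ADH7, an alcohol dehydrogenase, went from 13.2 and 5.37 CPM to 3.63 and 3.53 CPM in wild type and from 3.01 and 2.18 CPM to 9.73 and 12.6 CPM in IDR cells. The interaction was 4.03 ± 0.89 (edgeR adjusted p = 0.0217). YAR073W, a feature with a near-identical copy, had an interaction of 3.17 ± 0.56 (adjusted p = 0.0105). The 2 members with a smaller response in IDR cells were COS10 (-1.87 ± 0.38, adjusted p = 0.0169) and MIC10, which shapes the inner mitochondrial membrane (-0.87 ± 0.21, adjusted p = 0.0287).

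**Figure D4:**
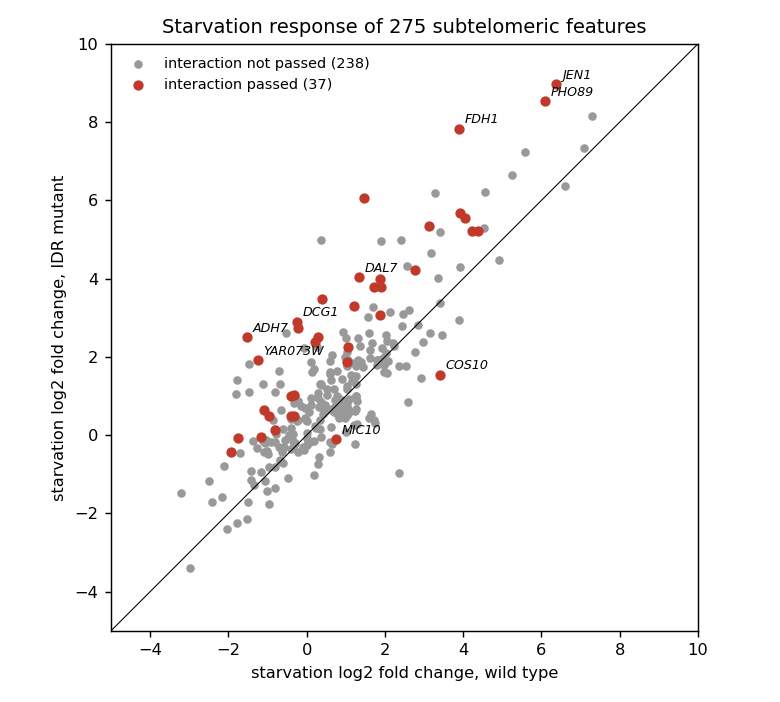
Log2 fold change on starvation in IDR cells against that in wild type for the 275 tested members, 1 point per feature, in red where the interaction passed; the line marks equal response. Of the 37 red points 35 lie above the line, and the 2 below it are COS10 and MIC10; the axes share the fitted spread of the same 12 libraries.

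Between starved libraries, 67 members were higher and 15 lower in IDR cells than in wild type, where 29.3% of all features passed (15.9% higher, 13.3% lower). Their median log2 difference was 0.33, against -0.02 for other features. The count of 82 became 38 or 43 without starved wild type replicate 1 or 2, and 53 or 41 without starved IDR replicate 1 or 2. In interface cells 2 members differed from starved wild type, FDH1 above and COS10 below, where 0.496% of all features passed (0.428% above, 0.0684% below). No member passed there without either starved wild type library or without starved interface replicate 2, 5 did without starved interface replicate 1, and COS10 alone passed with a replicate block. No member passed the interaction of the interface mutant with starvation (0.0171% of all features passed), and 9 passed by DESeq2. By edgeR 74 of 275 tested members had an unadjusted p under 0.05, as had 1138 of all 5845 features tested. Without unstressed wild type replicate 2, which leaves the library that stood apart alone in its group, 127 members passed, and 4 did without the library that stood apart. Leaving out starved interface replicate 1 gave 3. Shares of all features were not counted by DESeq2 or with a library left out, so those member counts have no background beside them. A missed threshold does not show that the responses were alike.

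Before starvation 5 members differed between the IDR mutant and wild type, 1 higher (HXK1) and 4 lower, where 1.68% of all features passed (1.13% higher, 0.547% lower). The lower ones included DCG1 (-1.58 ± 0.28, edgeR adjusted p = 0.0285), DFP4 of the DUP240 family (-1.47 ± 0.27, adjusted p = 0.0311) and PHR1, the DNA photolyase (-0.85 ± 0.14, adjusted p = 0.0267). No member differed between the unstressed interface mutant and wild type (0% of all features passed), and 2 passed by DESeq2. By edgeR 61 of 275 tested members had an unadjusted p under 0.05, as had 1420 of all 5845 features tested. Shares of all features were not counted by DESeq2 or with a library left out, for the IDR mutant or the interface mutant. Without unstressed wild type replicate 2 each of these comparisons gave 149 members, and without either unstressed IDR library no member passed for the IDR mutant.

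Nuclear extracts and whole cells were compared within starved cells of each strain. The extracts were separate preparations from spheroplasts, and their headers name another annotation file, so fraction and preparation cannot be told apart. The labels of the mutant nuclear libraries were first checked with 457 features that parted the starved whole cell mutants at an adjusted p under 0.05 and by more than 1 on the log2 scale, as a mean score relative to wild type of the same fraction. Starved whole cells scored 1.5 and 1.58 in IDR cells and 0.02 and 0.14 in interface cells. Nuclear IDR libraries scored 0.02, -0.17 and 0.78 and nuclear interface libraries 0.73 and 0.15, so interface replicate 1 was alike IDR replicate 3 and above the other IDR libraries. NAB2 set the same 2 libraries apart, with 119.1 CPM in interface replicate 1 and 127.4 CPM in IDR replicate 3. It was at 277.5 and 296.6 CPM in IDR replicates 1 and 2 and at 330.7 CPM in interface replicate 2. Here "labelled" marks that the mutant nuclear libraries are grouped as their labels give them, and results without IDR replicates 1 and 2 and interface replicate 1 are given beside them. That choice was made after seeing the data, and every mutant nuclear score lay nearer the whole cell interface value than the IDR value.

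In wild type 68 members were higher in the nuclear extracts and 20 lower, of 286 tested, where 31% of all features passed (17% higher, 14% lower). The rises were mostly among members with a copy: 49 of 129 were higher and 2 lower, with a median log2 difference of 0.80. Among 157 members without a copy 19 were higher and 18 lower, with a median of -0.01. Within 5 kb of the end 20 of 37 were higher and none lower, with a median of 1.20. The 4 of these without a copy had a median of 0.16, and 66 of the 79 features in that band have a copy. The 88 members called became 35 or 41 without starved whole cell replicate 1 or 2, and 40 without nuclear replicate 2.

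In the library set labelled interface mutant 66 members were higher and 26 lower, where 34.3% of all features passed (17.3% higher, 17% lower), and with the 3 doubtful libraries left out 62 were higher and 40 lower, where 38.7% of all features passed (20% higher, 18.6% lower). In that labelled IDR mutant 12 were higher and 18 lower, where 9.52% of all features passed (4.6% higher, 4.92% lower), and with those libraries left out 17 were higher and 23 lower, where 10.8% of all features passed (5.87% higher, 4.89% lower). Each mutant then had 1 nuclear library, which is assumed to vary like the groups with more. No member passed in the IDR set without either starved whole cell IDR library, 6 or 8 passed without nuclear IDR replicate 1 or 2 and 49 without replicate 3, and 46 passed in the interface set without starved whole cell interface replicate 1.

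**Figure D5:**
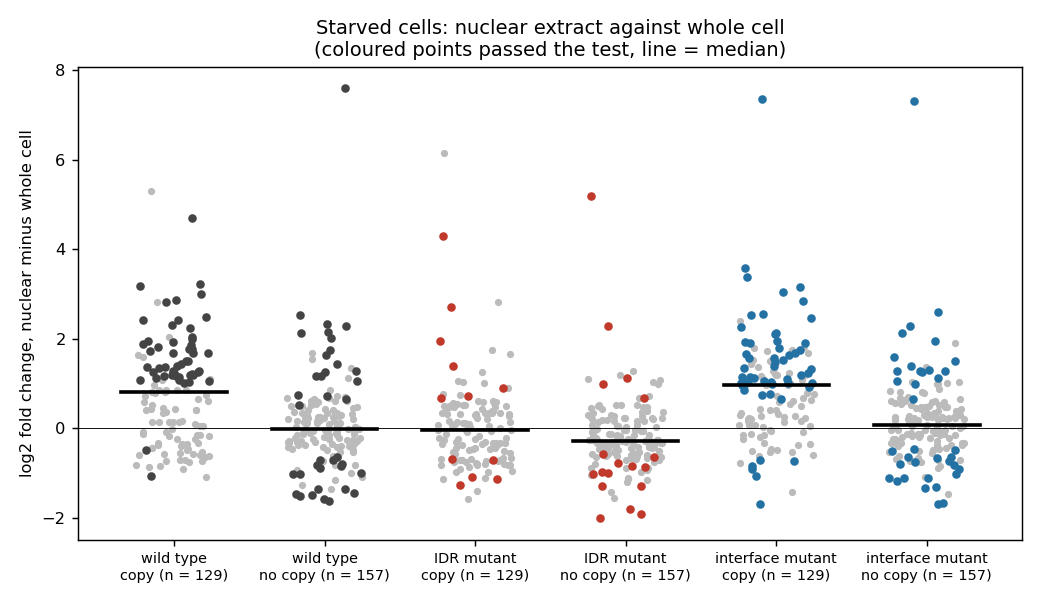
Log2 difference of nuclear extract over whole cell in starved cells for each tested member, split by strain as labelled and by whether the member has a near-identical copy; 1 point per member, coloured where the test passed, with the median as a line. Wild type members with a copy have a median of 0.80 and those without one of -0.01.

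The Y' element helicases were among the copied members that were higher in the wild type extracts. Their median log2 difference there was 1.20, the same as for all tested members within 5 kb. In that band 66 of 79 features have a copy, and reads shared with the Y' genes may enter both medians. The median was 0.80 for all members with a copy, 2.42 for the enolase-related genes and 1.63 for the hexose transporter genes. The summed level of the helicases was 851 and 850 CPM in starved wild type whole cells and 2160 and 2390 CPM in the nuclear extracts, with no overlap. All 8 were higher in wild type (17% of all features) and in the set labelled interface mutant (17.3%). None passed in the set labelled IDR mutant (9.52% of all features passed), where the nuclear sums were 1400, 1190 and 1070 CPM against 758 and 799 CPM. In wild type all 8 passed without each of the 4 libraries in turn. YRF1-5 was higher by 1.16 ± 0.18 on the log2 scale in wild type (edgeR adjusted p = 0.00193).

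The enolase-related genes ERR1, ERR2 and ERR3 behaved alike in wild type. ERR1 was at 1.82 and 1.45 CPM in starved whole cells and 8.86 and 11.8 CPM in nuclear extracts, without overlap, a log2 difference of 2.41 ± 0.39 (edgeR adjusted p = 0.00249). ERR2, identical to ERR1 over 1314 bases, gave 3.23 ± 0.50 and ERR3 gave 2.42 ± 0.49. The 3 genes, all with near-identical copies, were also higher in the extracts labelled interface mutant and did not pass in those labelled IDR mutant. Among all features 17%, 17.3% and 4.6% were higher in wild type and in the sets labelled interface mutant and IDR mutant. In starved whole cells all 3 were higher in IDR cells than in wild type (15.9% of all features), with a median log2 difference of 2.33. Between nuclear extracts the median for both mutants against wild type was 0.01.

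STL1 (chrIV:1508005-1509714), a glycerol and proton symporter with no copy, had the largest difference of the members in wild type. It was at 3.45 and 4.36 CPM in starved wild type whole cells and at 447.5 and 1288.1 CPM in the extracts. The mutants gave 4.7 to 6.77 CPM in starved whole cells and 152.9 to 1776.0 CPM in nuclear extracts, so every nuclear library lay above every whole cell library. The log2 difference was 7.60 ± 1.04 in wild type (edgeR adjusted p = 0.00144), 5.18 ± 0.91 in the set labelled IDR mutant (adjusted p = 0.0124) and 7.31 ± 1.01 in that labelled interface mutant (adjusted p = 0.0014). The IDR call was lost without either starved whole cell IDR library.

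Other members without a copy moved in both directions. MMP1, the S-methylmethionine permease, was at 22.2 and 24.1 CPM in wild type whole cells and 110.3 and 195.7 CPM in extracts (2.52 ± 0.29, edgeR adjusted p = 0.000986). YML131W was lower in the extracts, at 935.5 and 741.4 CPM against 1803.6 and 1866.4 CPM in whole cells (-1.35 ± 0.26, adjusted p = 0.00418), and lower in the sets labelled IDR mutant (-1.29 ± 0.23) and interface mutant (-1.11 ± 0.25). GIT1, the glycerophosphoinositol permease, was lower in wild type (-1.47 ± 0.39, adjusted p = 0.0166). None of the 12 maltose and isomaltase genes passed in any strain, and 2, 3 and 5 of the 11 COS and DUP genes were lower in wild type and in the sets labelled IDR mutant and interface mutant. In the same order 31%, 9.52% and 34.3% of all features passed, and 14%, 4.92% and 17% were lower, so the wild type count is near that share. Without nuclear IDR replicate 3, 3 maltose and isomaltase genes were lower in the IDR set. No COS or DUP gene passed in wild type without either whole cell library, nor in the IDR set without either of its whole cell libraries.

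Between nuclear extracts no member differed between the mutants together and wild type (0% of all features passed), and 14 passed by DESeq2. By edgeR 55 of 304 tested members had an unadjusted p under 0.05, as had 250 of all 6079 features tested. With the 3 doubtful libraries left out, 11 members passed, 10 higher and 1 lower, where 1.01% of all features passed (0.858% higher, 0.148% lower). That fit holds 1 nuclear library of each mutant, so its spread comes from the 2 wild type libraries.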

How the data were processed

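Poly(A) RNA was counted per gene feature in 21 libraries. Per the labels, oligo(dT) selection (25 nt) preceded a strand-specific library kit. Per the submitters' processing notes, reads were trimmed with cutadapt and aligned with TopHat2 (versions not given in the sources used here). Reads were counted by the authors, per the file headers, using featureCounts 2.0.1 in reverse-stranded mode, with reads that map to several places allowed as fractions; the deposited counts were all whole numbers. How reads of copies were split is therefore not known beyond the pairs tested. Positions of 304 members equalled those of reference R64, and 82 members were not in it.

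Each of 13 comparisons came from 1 of 3 edgeR 4.0.16 fits (R 4.3.3; TMM factors; filterByExpr with minimum count 10; quasi-likelihood F test; Benjamini-Hochberg over 5845, 6079 or 5936 features; threshold 0.05). SE is the log2 fold change over the square root of F. CPM scales counts to the yeast total of each library. Copies were found with BLAST 2.17.0. In simulated data for starvation in wild type over 5788 features, 100 were changed 2-fold and 100 were changed 4-fold. Of these, 32% and 88% were recovered, with 6 false calls. In the real libraries 66.3% of features passed, far more than were changed in the simulation, so these rates do not carry over to that comparison. Alternatives were RLE size factors, DESeq2 1.42.0, no filter, a replicate block, and each library left out. Named members were the 5 largest rises and falls per comparison, with a mean of at least 10 CPM and no overlap of libraries, up to 3 per family by p, and the 5 highest. Some others were named after their values were seen (JEN1 and GIT1 in other comparisons, HMRA1, HXT and VTH pairs). Members and lists were chosen with earlier results of these data known.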

Additional observations from a re-analysis of the deposited data

Results flagged for a closer look

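The starvation response of 37 subtelomeric features differed between the IDR mutant and wild type by the edgeR interaction test. The members named for a larger response in the mutant, as differences of log2 fold changes, were ADH7 (4.03), FDH1 (3.94), YAR073W (3.17), DCG1 (3.14) and DAL7 (2.70), and those with a smaller one were COS10 (-1.87) and MIC10 (-0.87). FDH1 and DCG1 passed in all alternatives run. DAL7 was lost without starved wild type replicate 1 (2.55) and without unstressed IDR replicate 2 (2.65). ADH7, COS10 and MIC10 were each lost in 6 leave-one-out fits, with values of 3.80 to 4.27, -2.03 to -1.73 and -1.02 to -0.74 in those fits, and YAR073W in 5, with 2.86 to 3.51. Without unstressed wild type replicate 1, the library that stood apart, ADH7 was at 2.84, DAL7 at 2.12 and COS10 at -1.47, and their calls were kept.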

How the results depend on the processing

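Of 223 results on single features, none reversed in any alternative, 137 kept their call in all, 86 lost it in some leave-one-out fit and 16 in another alternative. Counts of members called that moved by over 1.5 times were as follows. With members that have a copy left out, 95 passed on starvation in wild type, 100 in the IDR mutant, 1 for starved interface mutant against wild type, and 37, 18 and 37 for nuclear against whole cell in wild type, IDR and interface mutant. This step shrinks the tested set, so counts fall with it. The share called on starvation was 60.1% against 59.6% of all tested members in wild type, and 63.3% against 62.2% in the IDR mutant. It was 0.633% against 0.727% for the starved interface mutant. Between fractions it was 23.6% against 30.8% in wild type, 11.5% against 10.5% in the IDR mutant and 23.6% against 32.2% in the interface mutant. With DESeq2, 61 and 9 passed the IDR and interface interactions, 47 and 2 differed unstressed in the IDR and interface mutant, 11 in the starved interface mutant, 14 between nuclear mutants and wild type, and 52 between IDR fractions. With the replicate block, 1 passed for the starved interface mutant and 52 for IDR fractions; correlations of same-numbered deviations ran from -0.432 to 0.332 between whole cell groups, were 0.177 to 0.489 between nuclear groups and -0.095 between the IDR fractions. With 2 numbers a pairing could not be shown, and with the block 0 members passed between nuclear mutants and wild type. Without the 3 doubtful nuclear libraries 11 members differed between nuclear mutants and wild type.

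Leaving out each library in turn gave 128 to 196 members for starvation in wild type, 137 to 148 in IDR cells and 98 to 118 in interface cells; 3 to 137 and 0 to 127 for the IDR and interface interactions; 0 to 149 for each unstressed mutant, 38 to 53 for the starved IDR mutant and 0 to 5 for the starved interface mutant; 0 in each fit for nuclear mutants; and 35 to 74, 0 to 49 and 46 to 86 for the fractions in wild type, IDR and interface mutant. The highest whole cell counts came without unstressed wild type replicate 2, which leaves the replicate that stood apart as the only unstressed wild type library. The share of all features that passed was not counted for these fits or for DESeq2. Whether members shifted more than other features there is therefore not known.

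Mean member shares of counts, with copies left out and with the 5 highest members left out, were 2.02% and 1.223% in starved wild type, 2.768% and 1.526% in the starved IDR mutant, 2.237% and 1.235% in the starved interface mutant, 2.013% and 1.772% in nuclear wild type, 2.392% and 1.539% in the nuclear IDR mutant, 2.426% and 1.634% in the nuclear interface mutant, 0.883% and 1.094% for unstressed IDR cells, and 0.901% and 1.147% for unstressed interface cells; unstressed wild type without copies was at 0.868%. A group of 2 libraries limits what low features can show, and members under the count filter were not tested.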
